A study of Drosophila melanogaster with 16 samples.

Results

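Segment polarity genes divide each embryonic segment into stripes of cells that signal to each other. The 8 genes described here are the engrailed-type selector genes en and inv, the Hedgehog pathway genes hh, ptc and ci, the Pax-type genes gsb and gsb-n, and the Wingless antagonist gene nkd. They were chosen by name and located by a gene annotation of the fly genome (Release 6, the assembly of dm6), and all 8 were found among 13922 protein-coding genes of the arms 2L, 2R, 3L, 3R, 4 and X. For each gene, every loop with an anchor in or within 20 kb was sought, together with the nearest boundary on either side.

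In the blastoderm the pair-rule genes switch on en in narrow stripes, and cells with Engrailed secrete Hedgehog. Hedgehog binds its receptor Patched on neighbouring cells, which frees the membrane protein Smoothened and keeps the transcription factor Cubitus interruptus in its active form. Those neighbours make Wingless, which in turn maintains en. Insulation boundaries are positions that few chromatin contacts cross, and loops are pairs of points that contact each other more than their surroundings.

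Contacts were mapped by Micro-C, a proximity ligation assay with nucleosome resolution, in whole Drosophila melanogaster embryos of nuclear cycle 14. For all samples the labels give collections of 45 min, aging of 2 h and a temperature of 25 °C. The values come from the control line yw (genotype label WT, 2 samples), and the 14 samples of edited genotypes (SF1_del, SF2_del, Dfd_3Ins, Scr_DTE, AntpDTE1, AntpII1, ScrEE1 and ScrEE2) were not analysed here. Embryos of several collections were pooled, so a feature is an average over the cells inside and outside the stripes. The lists used held 1930 boundaries and 313 loops with 1 value per feature and no column per sample, so no value has a replicate error, the depth is unknown, and the absence of a feature from a list does not show its absence from the embryos. All results below are therefore descriptions without a test.

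None of the 8 genes took part in a listed loop. The count of genes with an anchor in or within 20 kb was 0 of 8, beside 13.8% of all protein-coding genes, a share that would amount to 1.10 genes of 8. The count of 0 is thus near the background for a group of this size. No member lay wholly between the anchors of a loop either, beside 3.15% of all genes. The distance to the nearest anchor ran from 38.9 kb at inv to 347 kb at ci, with a median of 121 kb over the 8 genes and 130 kb over all genes.

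**Figure D1:**
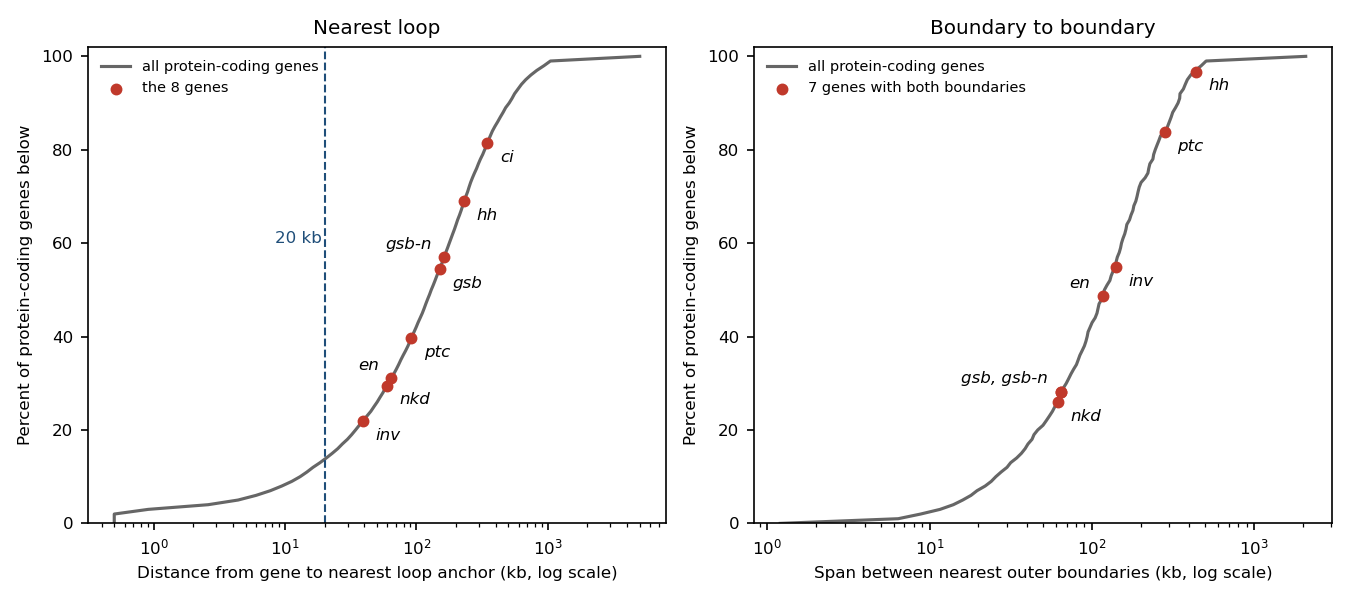
Cumulative share of protein-coding genes (grey line) by distance to the nearest loop anchor (left, kb, log scale, distances below 0.5 kb drawn at 0.5 kb) and by the span between the nearest boundaries outside the gene (right, kb, log scale), with the segment polarity genes as red points. All 8 points lie to the right of the 20 kb line, from inv at 38.9 kb to ci at 347 kb, and the spans run from 62.0 kb at nkd to 436.4 kb at hh.

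The selector genes en and inv encode closely related homeodomain transcription factors that mark the posterior compartment of each segment. They lie next to each other on 2R, inv at 11474465 to 11509695 and en at 11524006 to 11528210, with 14310 bp and no boundary between them. To the left of inv, a boundary at 11452001 to 11452400 lay at the end of E(Pc), the gene for Enhancer of Polycomb, with a strength of 1.91 (rank 576 of 1930). Strength is a score given by the authors, with a median of 1.64 over all boundaries and a lowest listed value of 1.2502. To the right, the nearest boundary lay inside tou, a chromatin protein gene, at 11592401 to 11592800, 64.2 kb beyond en, with a strength of 1.38 (rank 1549). Between these bins lay 140.0 kb that held inv and en as its only whole protein-coding genes. Nearly all of E(Pc) and a part of tou lay in it too.

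A further boundary of the locus lay inside inv, at 11475601 to 11476000, 1135 bp from the left end of the gene. Its strength was 1.32 (rank 1705), lower than at the other bins of the locus. Counted from this bin, en lay in a span of 116.4 kb, which 48.6% of genes with a boundary on both sides fell below. Most of inv lay on the side of en, so both genes shared this span except for the first stretch of inv.

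The loop nearest to en started at the boundary bin inside tou. It ran from 11592401 to 11615601, near the right end of tou, over 23.2 kb away from en, with a value of 14.04 (a score of the loop caller, rank 94 of 313, median 7.75). The bin was the only one of the boundaries at the 8 genes to overlap an anchor, 1 of 14, beside 1.04% of all boundaries. On the other side, a loop of value 9.46 joined ends of the aquaporin genes Drip and Prip at 11410801 and 11435201, 38.9 kb from inv and beyond the E(Pc) boundary. No loop of the list joined en to inv. Their midpoints lie 34.0 kb apart, a distance greater than the span of 163 of the 313 loops, so loops of such a span were within the range listed.

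**Figure D2:**
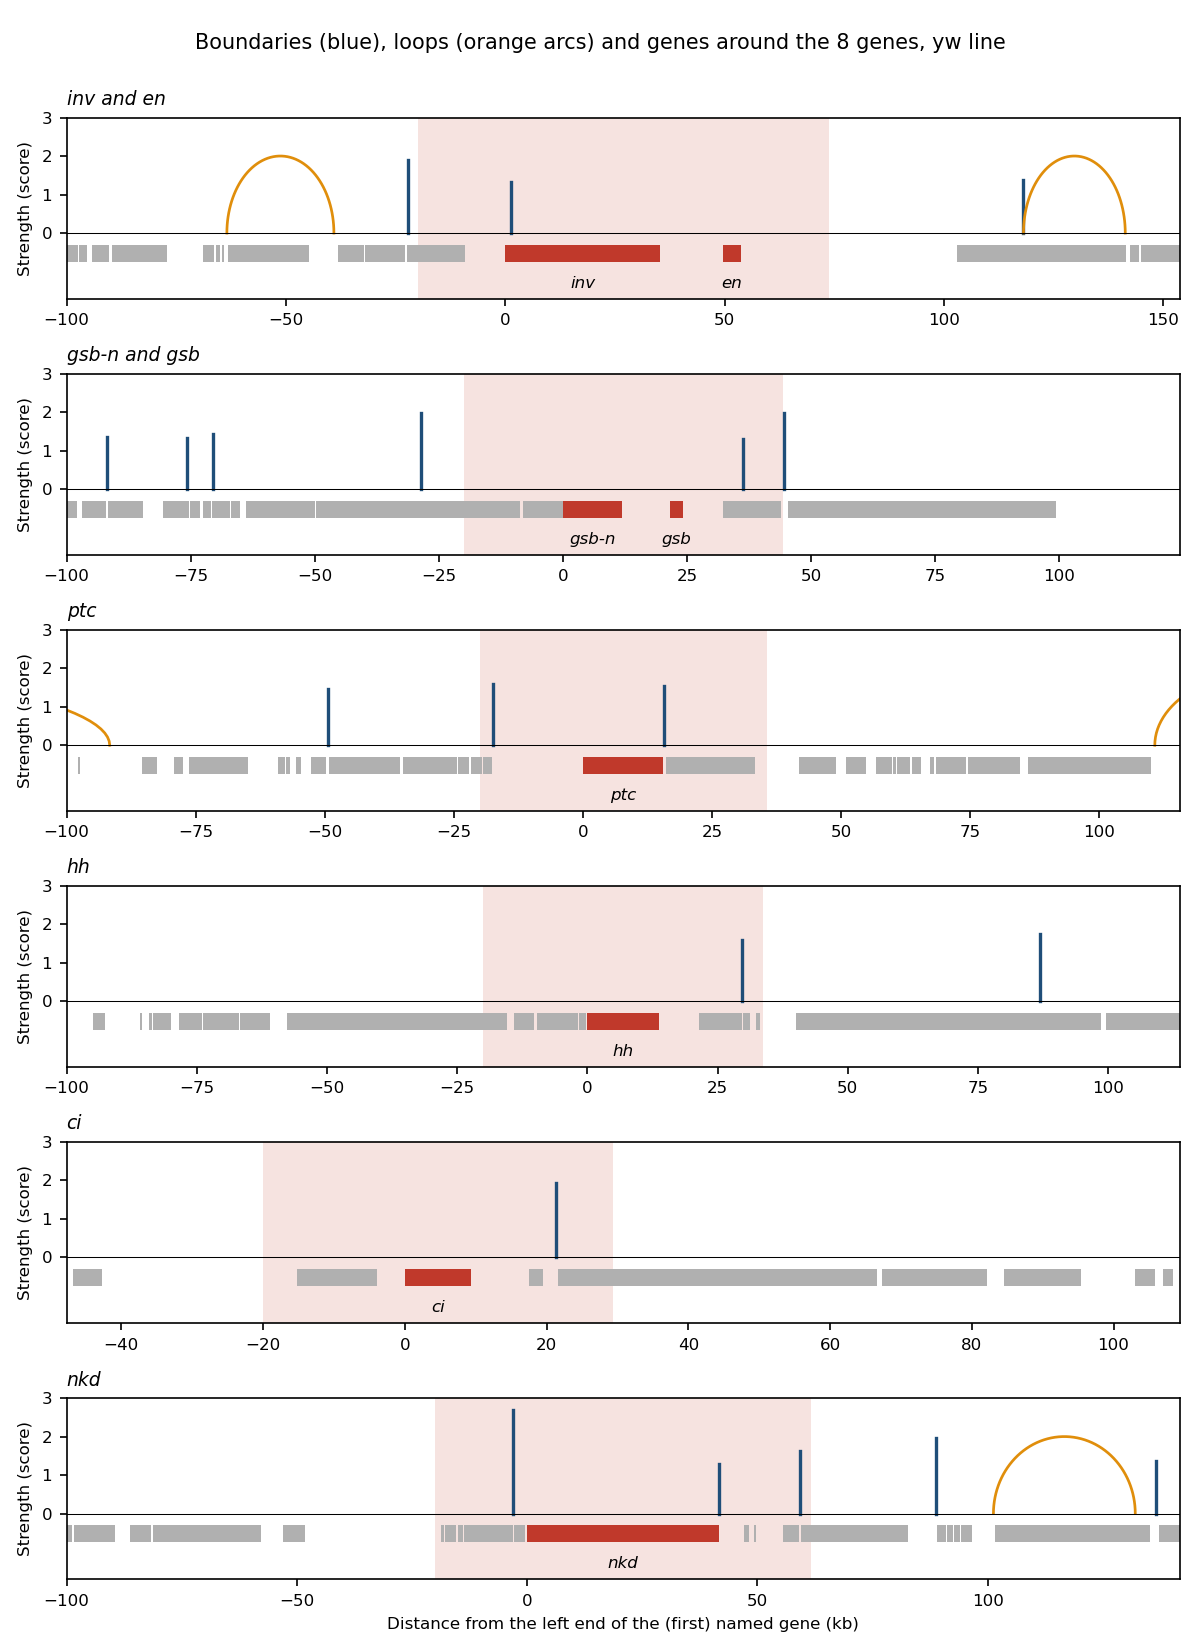
Maps of the 6 loci in kb from the left end of the first named gene, with segment polarity genes in red, other protein-coding genes in grey, boundaries as blue lines whose height is the strength, and loops as orange arcs of fixed height. The shaded stretch is the gene with 20 kb on each side: no arc ends inside it at any locus, and blue lines inside it are seen at inv, gsb, ptc, hh, ci and nkd.

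The Hedgehog ligand gene hh lies on 3R at 23128169 to 23141906. To its right, a boundary of strength 1.59 (rank 1074) lay 15.7 kb away at 23157601 to 23158000, at the neighbouring ends of unk, a zinc-finger gene, and VhaAC39-2, a proton pump subunit gene. To its left, the nearest listed boundary was 407 kb away at 22720801 to 22721200, beside wge and Irp-1A, with a strength of 1.36 (rank 1606). The span between both was 436.4 kb, rank 10 of the 1924 intervals between neighbouring boundaries and 12.3 times their median of 35.6 kb. Counted over genes with a boundary on both sides, the median span was 119.6 kb, and 96.7% of genes had a smaller span than hh. The span of hh held 56 whole protein-coding genes, and the midpoint of hh lay 5.17% of the span from its right edge. Within the span a single loop was listed, of value 15.3 and 58.8 kb, between intergenic bins at 22838801 and 22897601. Its right anchor lay 1283 bp from klg, an immunoglobulin-family gene, and 230 kb from hh, with no listed boundary between the loop and hh.

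The receptor gene ptc lies on 2R at 8649649 to 8665223. The bin at 8665201 to 8665600 was a boundary of strength 1.53 (rank 1212) that covered the last 23 bp of ptc and ended 212 bp before Acsl, the gene of a fatty acid activating enzyme. To the left of ptc, a boundary of 1.58 (rank 1086) at 8632001 to 8632400 lay 38 bp from CG8635 and 17.2 kb from ptc. Between these bins ptc was the only whole or nearly whole protein-coding gene, in a span of 32.8 kb. With the boundary at the gene end set aside, the next one to the right lay 249 kb away at 8914001, with a strength of 1.37. It lay at the ends of Pgi, a glycolysis gene, and lin, a segment polarity gene of the dorsal epidermis, and it widened the span to 281.6 kb and 35 whole genes. The nearest anchors stood 91.2 kb to the left, in a loop of value 15.3, and 94.8 kb to the right, in a loop of value 4.34 from an end of blo into sns, a myoblast fusion gene.

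The gene of the pathway's transcription factor, ci, lies on chromosome 4 at 47710 to 57041. This chromosome carried 16 boundaries and 2 loops. Its first listed boundary lay to the right of ci, 11.8 kb away at 68801 to 69200, with a strength of 1.92 (rank 546). The bin sat 125 bp from pan, the gene of the factor that carries the Wingless signal to DNA, and 1593 bp from the ribosomal protein gene RpS3A. It thus separated ci from pan, while RpS3A lay on the side of ci. No boundary was listed between ci and the left end of the chromosome, so no span could be given for ci. The next boundary to the right stood at 307601. The nearest loop, of value 7.77, had its right anchor 11.4 kb from lgs, another gene of Wingless transduction.

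The Pax-type genes gsb and gsb-n encode transcription factors with a paired domain and a homeodomain. The first acts in the segmented epidermis to keep wg on, and the second acts mainly in the nervous system. They are neighbours on 2R, gsb-n at 25040383 to 25052331 and gsb at 25061964 to 25064643, with 9632 bp and no boundary between them. Both stood between the same boundaries. The left one, at 25011601 to 25012000 between the nonmuscle myosin gene zip and uzip, had a strength of 1.97 (rank 506). The right one, at 25076401 to 25076800 inside gol, a ubiquitin ligase gene, had a strength of 1.29 (rank 1797), and a stronger one of 1.98 (rank 493) followed at 25084801. The span of 64.4 kb held uzip, Nplp1, gsb-n and gsb, and 28.2% of genes had a smaller one.

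No loop joined gsb-n to gsb, whose midpoints lie 16.9 kb apart. Of the 313 loops, 63 were shorter than that. The nearest loop, of value 4.83, lay 150 kb from gsb, beyond 4 boundaries, and ended 210 bp from the gap gene Kr. Other neighbouring related genes were joined in some cases and not in others. A loop of value 7.84 and 11.2 kb joined the Forkhead genes slp1 and slp2, and one of value 128 and 57.6 kb joined the T-box genes H15 and mid. The midpoint distances of inv from en, 34.0 kb, and of gsb-n from gsb, 16.9 kb, lie between these spans. The gap of 9632 bp between gsb-n and gsb is shorter than both. The ligand genes wg, Wnt6 and Wnt10, which lie in a common span of 129.6 kb on 2L, had no anchor within 20 kb, with the nearest 132, 159 and 167 kb away, and their neighbour Wnt4 had its nearest at 80.2 kb. The difference between joined and unjoined genes was not tested.

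The Wingless antagonist gene nkd, which limits the response to Wingless through the protein Dishevelled, lies on 3L at 19003741 to 19045449. To its left, 2940 bp away at 19000401 to 19000800, stood the strongest boundary at any of the 8 genes, with 2.69 (rank 153 of 1930), at the ends of CG3808 and SmydA-2. The right end of nkd lay inside a boundary bin of strength 1.29 (rank 1810), 19045201 to 19045600. These bins enclosed 44.4 kb, nearly filled by the 41709 bp of nkd. The next boundary to the right, of 1.62 (rank 1009), lay 17.4 kb away at 19062801, at the ends of Ugt316A1 and Sfxn2. Between the outer bins, 62.0 kb apart, lay SmydA-2, nkd, Acp76A and CG43407. The nearest loop, of value 6.40 and 30.8 kb, lay 59.4 kb to the right beyond 2 boundaries. It ran from 180 bp before CG14082 to 19135601 inside it, 4974 bp from fz2, the gene of a Wingless receptor.

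**Figure D3:**
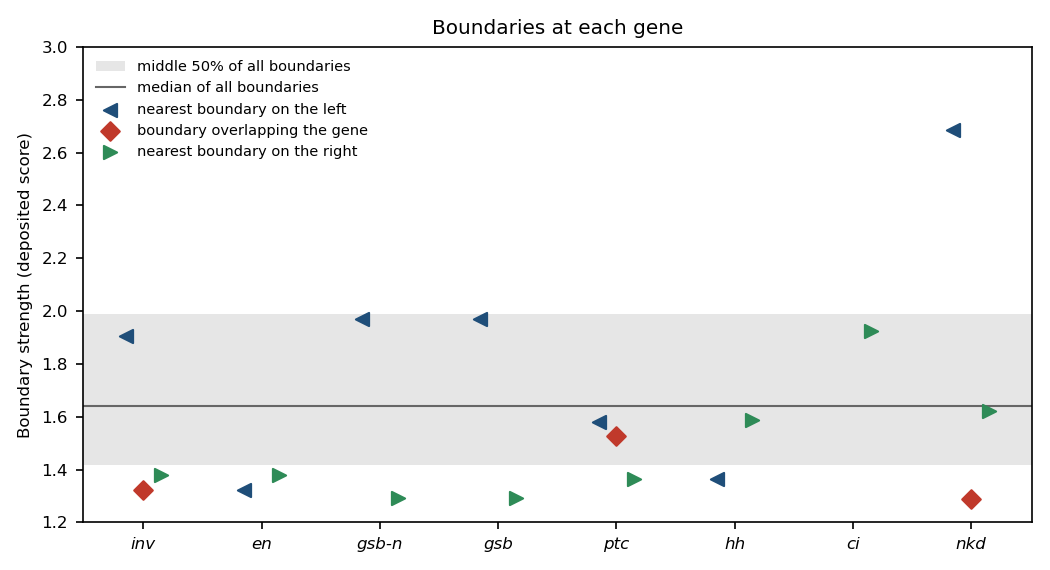
Strength (deposited score) of the nearest boundary to the left (blue) and right (green) of each gene and of boundaries that overlap it (red), with the median and the middle 50% of all boundaries in grey. The left boundary of nkd, at 2.69, stands above the grey band, and ci has no left boundary. Below the band stand the boundaries inside inv (1.32, also left of en) and at the end of nkd (1.29). The left boundary of hh (1.36) and the right ones of ptc (1.37), inv and en (1.38), and gsb-n and gsb (1.29) stand below it too.

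Over the 8 genes there were 14 different boundaries, 11 of them outside the genes and 3 overlapping inv, ptc or nkd. The bin inside inv is also the left boundary of en, so 12 bins were the nearest one outside some member. The 12 had a median strength of 1.59 and ran from 1.29 to 2.69. Of the 14, 4 (28.6%) were at or above the median of all boundaries, the bins at E(Pc), at zip, at pan and left of nkd, beside 50% of all boundaries by definition. Gene ends within 1 kb were found at 11 of the 14 (78.6%), close to the background of 72.9%. The 3 others were the bins inside inv, tou and gol. In 9 of the 11 the gene end or ends belonged to neighbouring genes only. At nkd the end was that of the member itself, and at ptc the ends were those of ptc and of its neighbour Acsl.

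Boundaries within 1 kb of an end of the gene itself were thus found at 2 of the 8 genes, ptc and nkd, beside 18.2% of all genes, a share that would amount to 1.46 genes of 8. Those overlapping the gene were found at 3 of 8, inv, ptc and nkd, beside 10.3% of all genes. The 3 are the longest of the 8 genes, from 15575 bp at ptc to 41709 bp at nkd (median over all genes, 2163 bp), and the part of length in this count was not tested. All 3 of these boundaries were weaker than the median boundary.

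The spans between the boundaries outside each gene had a median of 116.4 kb over the 7 genes with a boundary on both sides and 119.6 kb over 13908 genes, and 3 of the 7, inv, ptc and hh, lay above the median of all genes. The genes differed widely among themselves, with 62.0 kb at nkd and 64.4 kb at gsb and gsb-n, 116.4 kb at en, 140.0 kb at inv, 281.6 kb at ptc and 436.4 kb at hh. The median depended on which boundaries count. Taken around the midpoint of each gene, it was 64.4 kb, beside 112.8 kb over all genes, and with boundaries of at least the median strength 199.6 kb, beside 259.6 kb.

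A feature of the annotation was common to the 8 genes. Each had more sequence between itself and its neighbouring protein-coding genes, both sides summed, than the upper quartile of 5.00 kb over all genes, a level passed by 25% of genes. The sum ran from 5.80 kb at nkd and 7.93 kb at hh to 23.5 kb at inv and 63.6 kb at en. The gap of 49274 bp between en and tou, with no listed boundary or anchor, made up most of the latter. All 8 were also longer than the median gene, which 50% of genes are. The wide spacing was not particular to these genes. Their median sum was 14.9 kb, and lists described below had larger ones. These were 30.4 kb for pair-rule genes, 24.7 kb for T-box genes and 26.9 kb for the mixed Paired-box and Hedgehog target list, which share genes. The median was smaller for the Wnt ligand and Frizzled receptor genes and for the lists of Hedgehog and of Wingless transduction.

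The other genes of the pathways are set against the same shares over all genes, 13.8% for anchors and 18.2% for boundaries. Of 18 genes of Hedgehog transduction and transport, 2 (11.1%) had an anchor in or within 20 kb, near the background. They were cos, the kinesin-like scaffold of the pathway, 175 bp from a loop of value 24.0 that lies in Dscam1, and the kinase gene fu, 4396 bp from a loop of 7.50. None was found at smo, Su(fu), Pka-C1, disp or ihog, among others. Boundaries lay within 1 kb of an end of 8 of the 18 (44.4%, beside 18.2% of all genes). Among them were boi (strength 1.98), cos (1.77), Pka-C1 (1.71), Gprk2 (1.58) and dally (1.56). Of these, boi encodes a Hedgehog co-receptor and dally a glypican. The 18 genes had a median length of 7406 bp and 0.494 kb to their neighbours, beside 2163 bp and 0.988 kb over all genes. The part of length and spacing in this count was not tested.

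Of 12 genes of Wingless transduction and segment polarity, 4 (33.3%, beside 13.8%) had such an anchor. The highest value, 55.3, was at oc, a head gene counted in this list. The others were lgs (7.77), the Wingless co-receptor gene arr (4.59) and pygo (4.40), the partner of lgs, beside a median of 7.75 over all loops. Among those without one were wg itself, at 132 kb, and arm, dsh and sgg. Boundaries lay at 5 of the 12 (41.7%, beside 18.2%), arr (2.38), sgg (1.96), pan (1.92), arm (1.65) and lin (1.37). Those of pan and lin are the bins already met beside ci and ptc. The 12 genes had a median length of 8031 bp and 0.653 kb to their neighbours, and the part of both was not tested here either. In a mixed list of 8 genes, labelled Paired-box and Hedgehog target genes, 7 (87.5%, beside 13.8%) had an anchor in or within 20 kb. They were led by mid and H15 (128), rho (101), dpp (12.1) and slp1 with slp2 (7.84). The T-box genes mid and H15 share a single loop, as do the Forkhead genes slp1 and slp2, which also count as pair-rule genes. The loop at dpp lay 7971 bp from the gene, with its anchors in PIG-Wa and CG34447. Whether genes of this list respond to Hedgehog was not tested. The remaining one of the 7, kn (7.71), was named after its value was seen. The gene without such an anchor was prd, a relative of gsb and gsb-n and the only Paired-box gene of the list. Its nearest anchor was 375 kb away.

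Gene families with roles close to these showed other counts under the same rule. An anchor lay in or within 20 kb of 5 of 8 pair-rule genes (62.5%). The counts were 3 of 11 for Wnt ligand and Frizzled receptor genes (27.3%) and 7 of 8 for T-box genes (87.5%). The share over all protein-coding genes was 13.8%, and the 0 of 8 here is near it for a group of this size. Median distances to the nearest anchor were 0.172 kb, 80.2 kb and 0.0190 kb for these lists, beside 130 kb over all genes. The lists were chosen with earlier results known and share genes, neighbours such as Doc1, Doc2 and Doc3 are near the same loops, and no test of the difference was made.

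**Figure D4:**
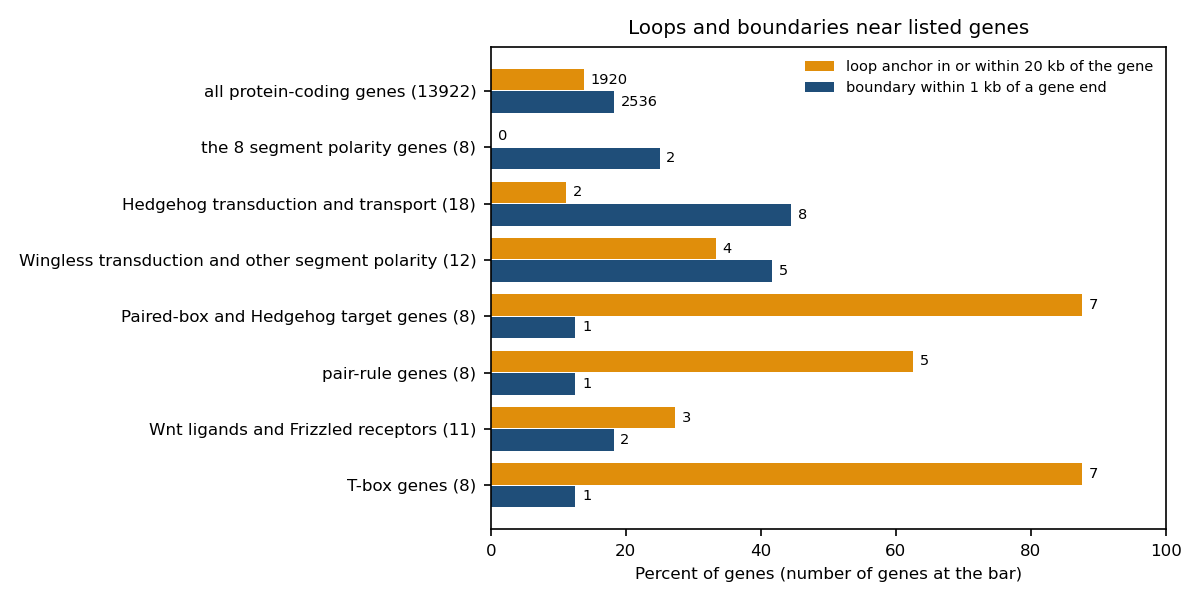
Percent of genes with a loop anchor in or within 20 kb (orange) and with a boundary within 1 kb of an end (blue), for all protein-coding genes and for each list, with the number of genes in the list in brackets and the number found at each bar. The segment polarity genes stand at 0 of 8 for loops and 2 of 8 for boundaries, beside 13.8% and 18.2% of all genes. The mixed list labelled Paired-box and Hedgehog target genes and the T-box genes, which share mid and H15, stand at 7 of 8 each for loops. The gene prd, the only Paired-box gene of its list, is not among the 7.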

How the data were processed

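The submitters' processing notes name BWA 0.7.17 and the build dm6, and reads had 50 bases per mate, per the labels' protocols. Whether the 2 yw samples were pooled before features were called is not given in the sources used here. Boundary strength and loop value are scores deposited by the authors without a stated scale, and the track line of the boundary list, per the file headers, names 10 kb and 1.25. The loop caller's probability of enrichment, a fraction deposited per loop, was not used for any result.

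Of 2034 boundary entries, 14 exact repeats were removed, and 90 on Y were left out. Genes came from a RefSeq table without strand, so starts cannot be told from ends. Spans run between the facing edges of the nearest boundaries wholly outside a gene, and distances count the bases between features. Named are the members, genes at or beside their boundaries and nearest loops, genes of small spans, and up to 5 pathway genes per list by loop value or strength. The members and lists were chosen with earlier results of these data known. Distances were computed with Python 3.11.15 and pandas 2.3.3 and checked on simulated features. Alternatives changed the windows, the minimum loop value and strength, and the boundaries that count. No sequence was used here.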

Additional observations from a re-analysis of the deposited data

How the results depend on the processing

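Each feature has 1 value and the depth is unknown, so no replicate could be left out. No paired analysis was possible because the lists hold no column per sample. Within 10 kb the members with an anchor stayed at 0, beside 8.32% of all genes. With only loops at or above the median value they also stayed at 0. Within 50 kb there was 1 member (inv) with 1 loop, beside 25.9% of all genes. Pathway genes with an anchor numbered 13 of 38 (34.2%), beside 13.8% of all genes. They numbered 12 within 10 kb and 15 within 50 kb, beside 8.32% and 25.9% of all genes. Members with a boundary at an end numbered 3 within 2 kb, beside 21.6% of all genes. With boundaries of at least the median strength this count fell to 0, as did that of members with a boundary inside the gene (0, from 3). No share of all genes was computed for these counts or for loops at or above the median value. The strength filter keeps 50% of all boundaries by definition, so the falls to 0 are not a result about the members. With the stronger boundaries the median span was 199.6 kb, beside 259.6 kb over all genes. With boundaries on each side of the midpoint it was 64.4 kb, beside 112.8 kb, and with members that share both boundaries counted once 128.2 kb. The span of ptc moved most, from 281.6 kb to 699.6 kb with the stronger boundaries and 32.8 kb around the midpoint, that of inv to 199.6 and 116.4 kb, and that of hh to 575.2 kb with the stronger ones. The median strength was 1.58 with each boundary counted once per member and 1.53 around the midpoints, beside 1.59.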

Other observations

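Boundaries were about as dense around the 8 genes as around other genes. Within 100 kb on each side of the gene's midpoint, 6 boundaries were listed for gsb-n and 5 for gsb, 4 for nkd and 3 for en and for ptc. There were 2 for inv and for hh, and 1 for ci. The window of ci was cut by the left end of chromosome 4, since ci starts at 47710. The median was 3 for the 8 genes and 3 for all protein-coding genes, with quartiles of 2 and 4. The gene en lay 48.0 kb and 64.2 kb from its nearest boundaries, and nkd 2.94 kb from its left one. The span of en, 116.4 kb, was near the middle for all genes, since 48.6% of those with a boundary on both sides fell below it.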
